A study of Rattus norvegicus with 8 samples.

Results

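The ER lumen chaperones described here are 10 genes: Hspa5, Hsp90b1, Hyou1, Dnajb9, Dnajb11, Dnajc3, Manf, Creld2, Sdf2l1 and Calr. They were chosen by gene symbol and not by a measured value, though earlier results of these data were known. Each stood on 1 row of a table of 32662 rat genes. RNA sequencing was done on primary cultures of oligodendrocyte precursor cells, the glial cells from which myelin-forming oligodendrocytes arise, from the cerebral cortex of Sprague Dawley rat pups 1 to 2 days old. The control group (4 samples) was kept under normal conditions, and the OGD group (4 samples) was deprived of oxygen and glucose, for 6 h in both. Both groups carried no genetic change that the labels name and shared the same history: a mixed glial culture in 20% serum, harvest of the non-adherent cells, then 4 to 5 days in medium holding 2% B27, 2 mM glutamine, 1% antibiotic and the growth factors PDGF and FGF at 10 ng/ml each. No label says whether the samples of a group came from separate animals or cultures, so each p-value measures only how these samples spread, possibly for technical reasons alone.

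The lumen of the endoplasmic reticulum (ER) is where secreted and membrane proteins fold. BiP, the HSP70 protein encoded by Hspa5, binds unfolded chains in cycles of ATP use that J proteins start and exchange factors end. GRP94 folds more selected clients, and the lectin calreticulin holds glycoproteins for folding. When unfolded proteins build up, the sensors IRE1, PERK and ATF6 start the unfolded protein response, and ATF6 and XBP1 then raise transcription of most of these chaperones. Oligodendrocytes lay down large amounts of membrane protein and lipid as they form myelin, and the unfolded protein response is a known feature of their diseases.

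The DNA that ATF6 and XBP1 read is short, and it lies close to the start sites of several of these genes. The ER stress response element (ERSE, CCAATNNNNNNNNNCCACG) joins a site for the factor NF-Y to one for ATF6, ERSE-II (ATTGGNCCACG) is a compact relative, and the unfolded protein response element was searched as TGACGTGG (UPRE). Promoter windows from RefSeq (build GRCr8, not the rn6 build named for the deposited table) run from 250 bases before to 50 bases after an annotated start, and 9 of the 10 genes matched one; Manf did not. Because ATF6 and XBP1 are known to act on most of these chaperones, motif letters were likely beforehand, and no enrichment was tested. On either strand, ERSE letters stood in 5 of these 9 genes (Hspa5, Hsp90b1, Calr, Creld2 and Dnajc3). Over all 27457 genes with a window they stood in 21 (0.0765%). ERSE-II letters stood in Hyou1 and Dnajb11 and in 17 of all genes (0.0619%). UPRE letters stood in Hyou1 and in 187 of all genes (0.681%). Dnajb9 and Sdf2l1 held none of these letters in this window, which says nothing about the factors themselves.

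The windows are shown for the 7 genes with a match, and for Sdf2l1, which had the deepest fall, as a promoter without one. All read 5′ to 3′ on the gene's own strand, in lower case, with the fixed letters of each match in capitals; a match on the opposite strand therefore reads CGTGG before ATTGG or, for ERSE-II, CGTGG before CCAAT. Bases are counted back from -1, the base before the annotated start. Hspa5 is shown from -250 to -1 (chr3:38452766-38453015, plus strand), with its only exact ERSE match at -43 to -25. The search took exact letters, so near variants were not marked in any window. Hsp90b1 is shown from -250 to -1 (chr7:23012294-23012543, minus strand), with one ERSE at -176 to -158 and an opposite one at -72 to -54. Shorter stretches hold the opposite-strand ERSE of Calr at -232 to -214 (chr19:40213117-40213173, plus strand), that of Creld2 at -145 to -127 (chr7:121789219-121789277, plus strand) and the same-strand ERSE of Dnajc3 at -133 to -115 (chr15:102432514-102432572, plus strand). Hyou1 (chr8:53602671-53602824, plus strand) has a UPRE at -191 to -184 that overlaps an opposite ERSE-II at -188 to -178, and another ERSE-II at -88 to -78; its other annotated window held no match. Dnajb11 (chr11:91672800-91672830, minus strand) has its ERSE-II from -10 to the first transcribed base, and Sdf2l1 is shown from -250 to -1 (chr11:97376628-97376877, plus strand).
Hspa5: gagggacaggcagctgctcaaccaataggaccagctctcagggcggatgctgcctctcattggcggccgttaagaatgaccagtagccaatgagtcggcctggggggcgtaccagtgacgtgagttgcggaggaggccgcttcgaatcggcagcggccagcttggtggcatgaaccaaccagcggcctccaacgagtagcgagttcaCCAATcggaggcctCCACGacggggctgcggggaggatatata
Hsp90b1: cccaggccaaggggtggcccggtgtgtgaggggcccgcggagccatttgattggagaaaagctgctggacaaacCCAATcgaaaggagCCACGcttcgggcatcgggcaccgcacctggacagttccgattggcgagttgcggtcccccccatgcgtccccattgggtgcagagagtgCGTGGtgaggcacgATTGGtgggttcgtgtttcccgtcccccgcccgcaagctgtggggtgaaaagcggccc
Calr: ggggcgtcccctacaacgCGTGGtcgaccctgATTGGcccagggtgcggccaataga
Creld2: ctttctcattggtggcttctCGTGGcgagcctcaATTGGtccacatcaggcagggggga
Dnajc3: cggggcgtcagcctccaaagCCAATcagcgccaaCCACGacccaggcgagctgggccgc
Hyou1: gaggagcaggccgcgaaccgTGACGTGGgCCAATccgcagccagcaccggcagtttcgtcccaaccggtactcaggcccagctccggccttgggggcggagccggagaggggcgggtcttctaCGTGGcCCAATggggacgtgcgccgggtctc
Dnajb11: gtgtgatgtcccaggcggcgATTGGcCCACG
Sdf2l1: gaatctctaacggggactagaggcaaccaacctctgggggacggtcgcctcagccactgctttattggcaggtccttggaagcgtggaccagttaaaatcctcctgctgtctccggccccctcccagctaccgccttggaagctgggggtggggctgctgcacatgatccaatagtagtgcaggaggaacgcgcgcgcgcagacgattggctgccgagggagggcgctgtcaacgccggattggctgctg

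**Figure D1:**
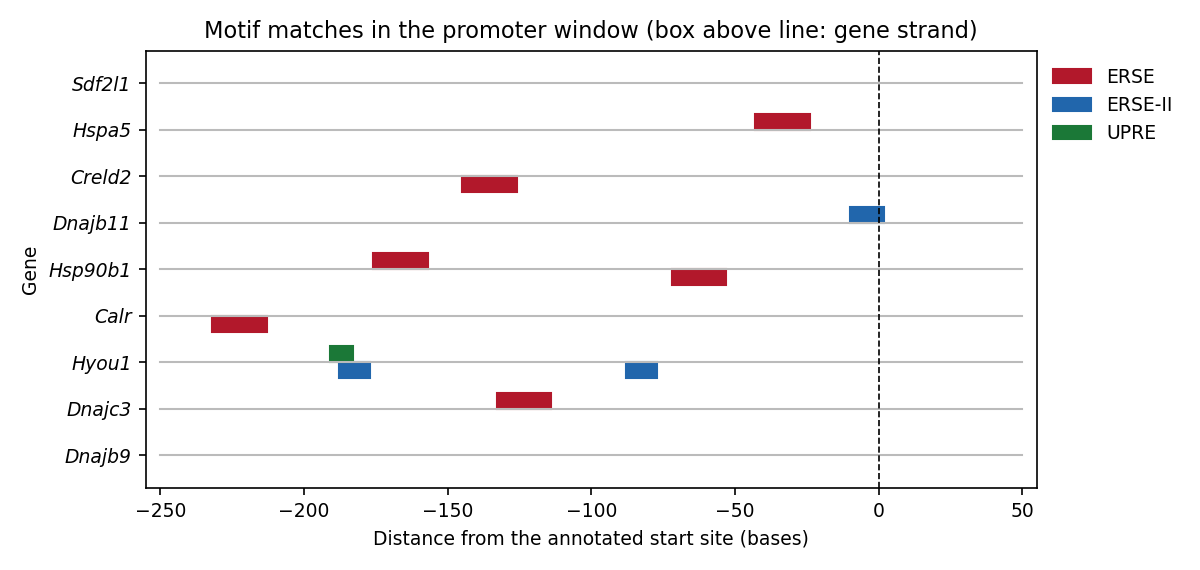
Position of each match to the ERSE (red), ERSE-II (blue) and UPRE (green) letters, in bases from the annotated start (dashed line), for the 9 genes with a promoter window, ordered from the deepest fall in OGD (top) to none. Boxes above a line lie on the gene's strand and boxes below on the opposite one; Hspa5 and Dnajb11 have their matches nearest the start, and Sdf2l1 and Dnajb9 have none.

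Values are FPKM, which divide the fragments of a gene by its length and by the size of the library, so levels can be set side by side between genes. Each gene's difference is given on the log2(FPKM + 1) scale, which understates low genes, and was tested with limma across all 11149 genes of at least 1 FPKM in at least 4 samples, at an adjusted p below 0.05. Of the 10 genes, all were above 1 FPKM in every sample, 9 fell in OGD, 0 rose and 1, Dnajb9, did not pass. Across all tested genes 26.8% were called lower and 22.7% higher. The median difference was -0.48 for the 10 genes and -0.04 for all tested genes. In 8 of the 10 every OGD sample lay below every control sample, a separation seen in 24.1% of tested genes. A fall of at least 2-fold was reached by 2 of the 10, Hspa5 and Sdf2l1, and by 2.15% of tested genes.

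Total fragment numbers are not given, but steps between low values put relative depth between 0.816 and 1.18, with control replicate 1 as 1. Cell identity was read in the same libraries. All 9 matched precursor markers, Pdgfra, Cspg4, Olig1 and Sox10 among them, were present, with a summed level of 2339 to 2485 FPKM in control and 1513 to 1753 FPKM in OGD samples. Of these 9, 6 fell, C1ql1 most (-1.46), and 0 rose. Their median difference was -0.42, near the -0.48 of the 10 chaperones. Microglial markers (13 of 14 matched, none at 0) summed to 270.2 to 419.8 FPKM in control and 102 to 173 FPKM in OGD samples. Of the 13, 12 fell (median -1.10), Cx3cr1 most (-1.90). Astrocyte markers summed to 166 to 175 FPKM in control and 164 to 173 FPKM in OGD samples. Of the 6 tested, 1 fell, Gfap (from 2.16 to 0.480 FPKM, -1.09), and 0 rose. Gfap is low and was not tested in every alternative. Neuronal markers (Slc17a7 at 0 in every sample) summed to 98.6 to 105 FPKM in control and 113 to 127 FPKM in OGD samples. Of the 9 tested, 3 fell, Nefl most (-0.65), and 2 rose, Tubb3 most (from 30.2 to 53.0 FPKM, 0.79). Vascular and stromal markers stayed below 0.44 FPKM in sum, with Cldn5 and Dcn at 0. The part of these shifts in the falls described below was not tested, and in bulk RNA fewer cells of a type and less RNA per cell cannot be told apart.

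Both HSP70-family chaperones at the centre of ER folding fell. Hspa5 (ENSRNOG00000018294) measured 144, 146, 135 and 130.4 FPKM in control replicates 1 to 4, the order used for every gene, against 67.5, 62.5, 67.9 and 70.3 in OGD replicates 1 to 4. The groups were far apart, and replicates within a group lay close together. The mean went from 139 ± 7.50 to 67.1 ± 3.24 FPKM (SD, n = 4 each), a ratio of 0.482. The difference was -1.04 (SE, standard error, 0.06; 95% interval -1.18 to -0.90; limma, adjusted p = 7.71e-07), and 209 of the 11149 tested genes fell further. Hyou1 (ENSRNOG00000010944) encodes GRP170, a large HSP70 relative that releases nucleotide from BiP and was named for its induction by low oxygen. It measured 21.2, 22.8, 20.6 and 18.7 FPKM in the control replicates against 16.9, 17.7, 15.8 and 15.4 under OGD. Every OGD sample was below every control sample, with the lowest control, replicate 4, close to the highest OGD sample, replicate 2. Its difference was -0.32 (SE 0.08, limma, adjusted p = 0.00608), and its ratio of means 0.790.

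Of the 3 J proteins, which bring clients to BiP and start its ATP use, 2 fell and 1 did not pass. Dnajb11 (ENSRNOG00000001803) encodes ERdj3, which binds nascent and misfolded chains in the lumen. It measured 42.9, 40.04, 40.2 and 38.2 FPKM in the control replicates against 22.3, 24.2, 28.8 and 28.6 under OGD, with OGD replicates 1 and 2 lowest. The groups did not overlap, and the difference was -0.62 (SE 0.09, limma, adjusted p = 0.000217). Dnajc3 (ENSRNOG00000010352) encodes p58IPK, a J protein with tetratricopeptide repeats that also restrains the kinase PERK. It measured 18.6, 20.8, 18.1 and 16.3 FPKM in the control replicates against 15.8, 14.04, 14.9 and 16.4 under OGD. Here OGD replicate 4 lay just above control replicate 4, so the groups overlapped. The difference was -0.26 (SE 0.08, limma, adjusted p = 0.0276). The call was lost in 7 of 17 alternatives, among them without control replicate 1 (adjusted p = 0.0522), control 2 (0.0797), control 3 (0.0549), OGD replicate 2 (0.0713) or OGD replicate 3 (0.0599), and after rescaling outside mitochondrially encoded genes (0.0738); the range over all its alternatives was 0.0169 to 0.0797.

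Dnajb9 (ENSRNOG00000004006) encodes ERdj4, a J protein that takes part in ER-associated degradation, holds the sensor IRE1 inactive and is a classic target of XBP1. It measured 10.98, 9.995, 10.6 and 8.78 FPKM in the control replicates against 11.5, 10.1, 10.8 and 10.8 under OGD. The groups overlapped, with control replicate 4 the lowest of all samples. The difference was 0.09, with a 95% interval of -0.10 to 0.28 (limma, adjusted p = 0.408), an interval that leaves out a fall of the size seen in Dnajb11. Across the alternatives the difference of Dnajb9 ranged from 0.03 to 0.13.

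Sdf2l1 (ENSRNOG00000001859), a small soluble protein that works in complex with ERdj3 and keeps clients from aggregating, had the deepest fall of the 10. It measured 19.7, 19.0, 15.3 and 21.6 FPKM in the control replicates against 4.96, 6.03, 6.67 and 8.37 under OGD. The lowest control, replicate 3, was still above the highest OGD sample, replicate 4, though both groups spread more widely than for the other genes, with a coefficient of variation of 13.98% and 21.9%. The mean went from 18.9 ± 2.64 to 6.51 ± 1.43 FPKM (SD, n = 4 each), a ratio of 0.344, and the difference was -1.42 (SE 0.14, limma, adjusted p = 2.18e-05). Only 50 of the tested genes fell further on this scale.

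The chaperones GRP94 and calreticulin fell as well. Hsp90b1 (ENSRNOG00000026963) encodes GRP94, the HSP90 of the ER, which folds integrins and other selected clients. It measured 181, 190.1, 174 and 179 FPKM in the control replicates against 125, 123, 139.9 and 152 under OGD. The groups did not overlap, with OGD replicates 3 and 4 nearer the controls than replicates 1 and 2, and the difference was -0.43 (SE 0.08, limma, adjusted p = 0.000925). Calr (ENSRNOG00000003029) encodes calreticulin, the soluble lectin that holds glycoproteins for folding and buffers ER calcium. It was the most abundant of the 10, with 391, 351, 339.8 and 344 FPKM in the control replicates against 262, 257, 295 and 269 under OGD. Control replicate 1 was the highest and OGD replicate 3 came nearest the controls without reaching them. The difference was -0.40 (SE 0.07, limma, adjusted p = 0.000993).

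Manf and Creld2, small proteins that can also leave the cell, fell too. Manf (ENSRNOG00000014201), a neurotrophic factor of the ER that binds BiP, measured 112, 101, 105 and 105 FPKM in the control replicates against 67.8, 69.4, 79.0 and 75.3 under OGD. The groups were well apart, and the difference was -0.54 (SE 0.07, limma, adjusted p = 9.69e-05). Creld2 (ENSRNOG00000004659), a secreted cysteine-rich protein known for its induction by ER stress, measured 21.9, 21.4, 22.9 and 21.2 FPKM in the control replicates against 12.7, 11.8, 10.2 and 11.6 under OGD. Its control samples were the tightest of the 10, with a coefficient of variation of 3.40%, and no OGD sample came near them. The difference was -0.87 (SE 0.08, limma, adjusted p = 1.02e-05).

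**Figure D2:**
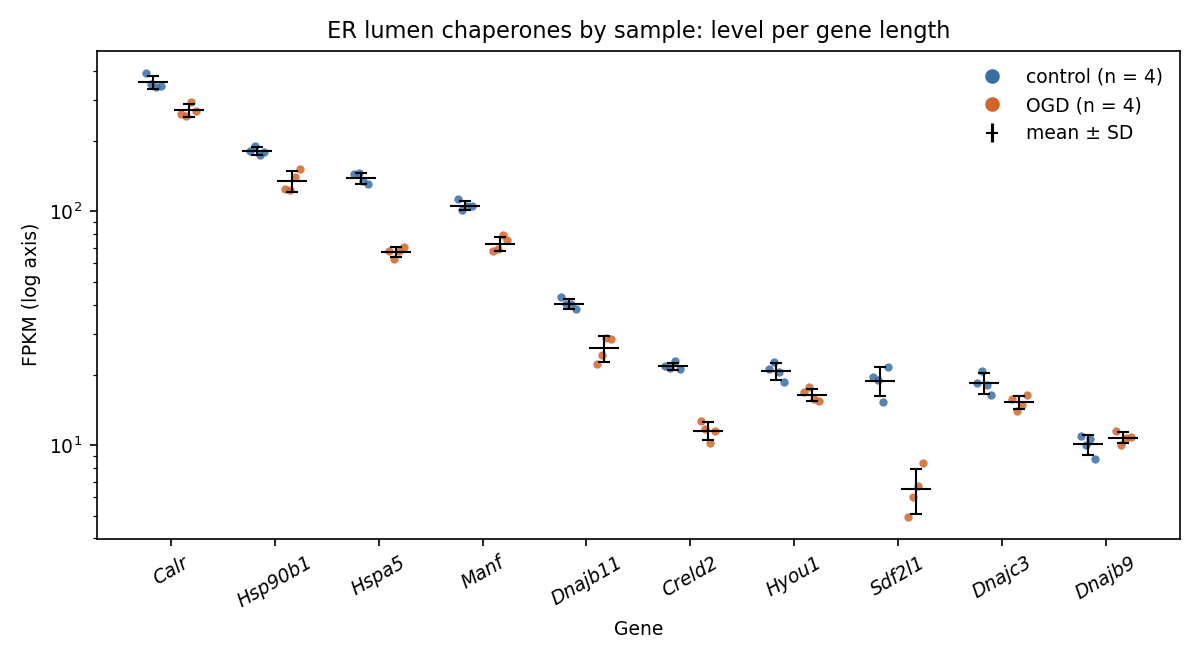
FPKM of the 10 genes (log axis) in 4 control (blue) and 4 OGD (orange) samples, 1 point per sample, with mean and SD in black; genes are ordered by control level. Points of the 2 groups are apart for 8 genes and overlap for Dnajc3 and Dnajb9; Sdf2l1 drops from the level of Hyou1 to the lowest of the 10.

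In control cells the order of levels was Calr, Hsp90b1, Hspa5, Manf and Dnajb11, each apart from the next, then Creld2, Hyou1, Sdf2l1 and Dnajc3, whose ranges overlapped from neighbour to neighbour, and last Dnajb9. In OGD samples Manf (72.9 ± 5.19 FPKM) and Hspa5 (67.1 ± 3.24 FPKM) overlapped, Hyou1 and Dnajc3 stood above Creld2, and Sdf2l1 was lowest, below Dnajb9. Together the 10 genes summed to 963, 922, 882 and 884 FPKM in control and to 606, 596, 669 and 658 FPKM in OGD replicates 1 to 4. All 4 OGD sums were below all 4 control sums. As a share of all FPKM this was 0.193% ± 0.00517 and 0.138% ± 0.0128 (SD, n = 4 each). Hspa5 made up 15.2% ± 0.492 of the sum in control and 10.6% ± 0.408 in OGD, Sdf2l1 2.07% ± 0.291 and 1.03% ± 0.187, and Calr 39.03% ± 1.11 and 42.9% ± 1.32.

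How the other 9 genes stood against Hspa5 is described by the ratio of each gene to Hspa5 within a sample, which does not depend on library scaling. Hspa5 was taken as the denominator after its fall had been seen, so these ratios restate that fall and carry no test. For 7 of the 9 (Hsp90b1, Hyou1, Dnajb9, Dnajb11, Dnajc3, Manf and Calr) the ratio was higher in every OGD sample than in any control sample, as it was for 82.9% of all other tested genes, so the count says nothing particular about the chaperones. For the cochaperone Dnajb11, the ratio to Hspa5 was 0.298, 0.273, 0.297 and 0.293 in control and 0.331, 0.387, 0.424 and 0.407 in OGD. For Dnajb9 it went from 0.0762, 0.0683, 0.0785 and 0.0673 to 0.170, 0.161, 0.158 and 0.154, a log2 difference of 1.15 (SE 0.06). The ratio of Creld2 to Hspa5 overlapped between groups, with a log2 difference of 0.13 (SE 0.09). That of Sdf2l1 also overlapped, at -0.50 (SE 0.18), and 3 of the 4 OGD samples lay below every control sample.

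**Figure D3:**
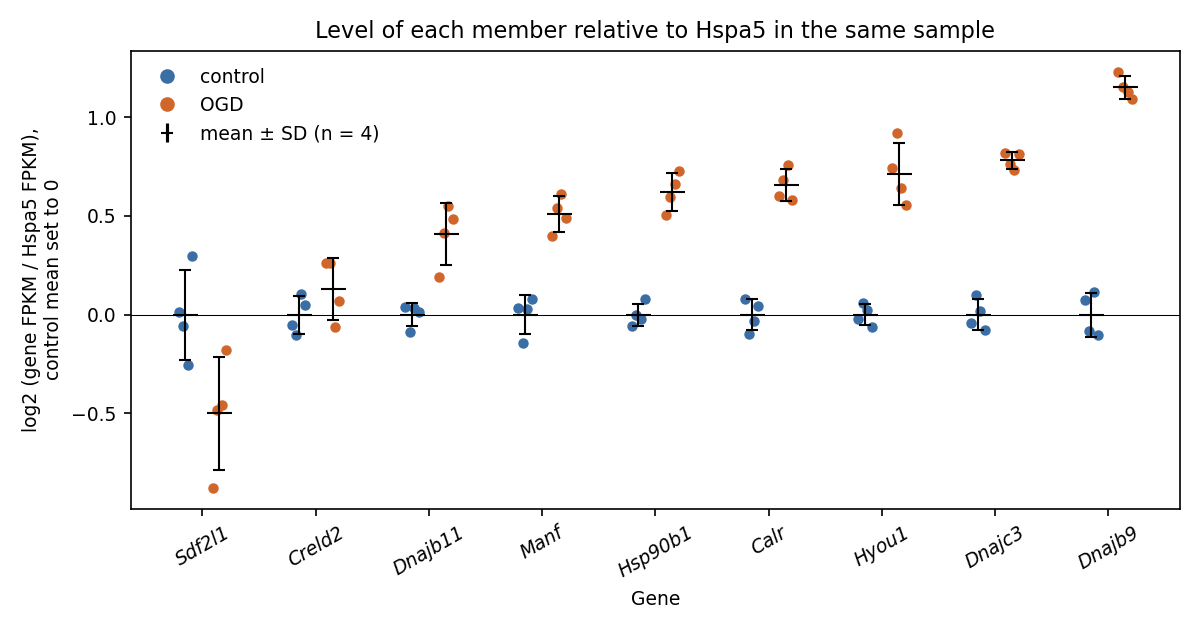
Ratio of each gene to Hspa5 in the same sample, as log2 with the control mean set to 0, for 4 control (blue) and 4 OGD (orange) samples with mean and SD. OGD points lie above control points for 7 genes, as for 82.9% of other tested genes, most for Dnajb9 (1.15), and overlap them for Creld2 (0.13) and Sdf2l1 (-0.50).

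Most of these chaperones have a relative in another compartment or family branch, and 9 such pairs were set. Of these 8 could be compared; Cdnf, the relative of Manf, stood below 1 FPKM in every sample. The pairs were set with earlier results of these data known, so their ratios in part restate the falls above. In 7 of the 8 pairs the ratio of ER member to relative was lower in every OGD sample than in any control sample. For 4 against 4 samples such separation gives the smallest possible p, 0.0286 (exact permutation, two-sided, adjusted p = 0.0327 over 8 pairs). The same separation was seen, among all other tested genes, in 20% of ratios to Hspa8, 24.5% to Hsp90ab1, 22% to Canx, 7.29% to Dnajb1, 30.5% to Dnajc7, 39.2% to Creld1, 30.3% to Sdf2 and 10.8% to Hsph1. Hspa8, the constitutive cytosolic HSP70, measured 381, 356, 334 and 345 FPKM in the control replicates against 332, 314, 361 and 391 under OGD, overlapping groups with a difference of -0.02 (95% interval -0.20 to 0.16, limma, adjusted p = 0.838). The ratio of Hspa5 to Hspa8 was 0.378, 0.412, 0.405 and 0.378 in control and 0.204, 0.199, 0.188 and 0.180 in OGD, a log2 difference of -1.03 (SE 0.05). Hspa8 stands on 2 rows of the table and has close copies, which makes its level uncertain.

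Hsp90ab1, the constitutive cytosolic HSP90, had a difference of 0.03 (95% interval -0.14 to 0.21, limma, adjusted p = 0.749), and the Hsp90b1 to Hsp90ab1 ratio differed by -0.46 (SE 0.04) on the log2 scale. Canx, the membrane-bound lectin calnexin, which also works in the ER, was at 163 ± 9.59 and 162 ± 5.98 FPKM (SD, n = 4 each), a difference of -0.01 (95% interval -0.14 to 0.13, limma, adjusted p = 0.937). The Calr to Canx ratio was 2.52, 2.00, 2.07 and 2.22 in control and 1.64, 1.67, 1.77 and 1.62 in OGD, so the soluble lectin was lower relative to the membrane-bound one in each OGD sample. Among the smaller families Creld1 rose (12.7 ± 0.587 to 15.7 ± 1.68 FPKM, difference 0.28, limma, adjusted p = 0.0176), opposite to Creld2. That call was lost without control replicate 3 (adjusted p = 0.0543) or OGD replicate 3 (0.0526; range over its alternatives 0.00424 to 0.0543). Sdf2 was at 29.6 ± 2.15 and 33.02 ± 3.09 FPKM (difference 0.15, limma, adjusted p = 0.149), and the Sdf2l1 to Sdf2 ratio differed by -1.71 (SE 0.21). Without OGD replicate 2, Sdf2 passed as a rise (0.22, limma, adjusted p = 0.0423, with a range over its alternatives of 0.0423 to 0.348).

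The cytosolic J proteins Dnajb1 and Dnajc7 differed by -0.32 (limma, adjusted p = 0.0129) and 0.15 (0.0821). Dnajc7 passed as a rise under quantile normalization (0.26, adjusted p = 0.00751), rescaled outside mitochondrially encoded genes (0.0344), without control replicate 1 (0.0344) and without control replicate 1 and OGD replicate 4 together (0.0404), with a range of 0.00751 to 0.206 over its alternatives. The ratios of Dnajb11 and Dnajc3 to Dnajb1 and Dnajc7 differed by -0.30 (SE 0.07) and -0.42 (SE 0.10). Hyou1 was the exception. Its cytosolic relative Hsph1, an HSP110 exchange factor, was at 21.1 ± 0.877 and 18.1 ± 1.24 FPKM, a difference of -0.21 (limma, adjusted p = 0.0303). The ratio of Hyou1 to Hsph1 overlapped between groups, at -0.12 (SE 0.08, exact permutation p = 0.200, adjusted p = 0.200). The call on Hsph1 itself was lost without control replicates 1, 2 or 4 or OGD replicates 1 or 4, among others (adjusted p range over its alternatives 0.0176 to 0.0976).

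**Figure D4:**
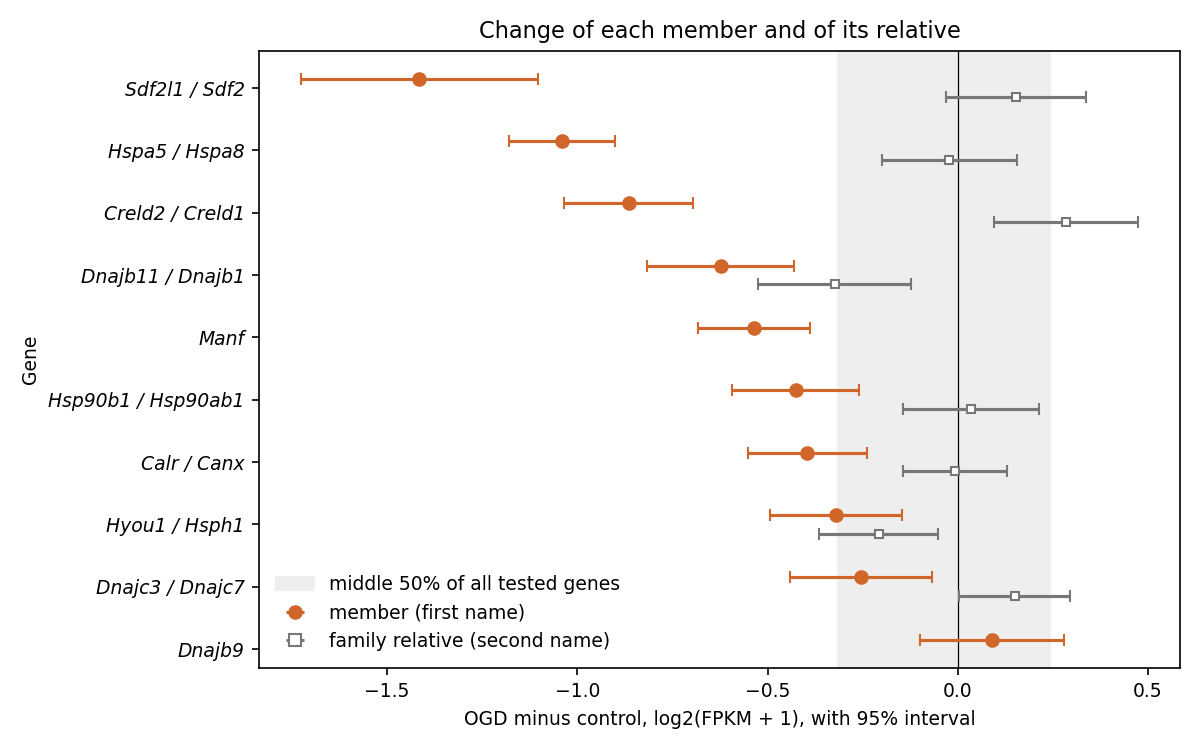
Difference between OGD and control on the log2(FPKM + 1) scale with its 95% interval for each of the 10 genes (orange circles) and for the tested relative (grey squares); the band spans the middle 50% of all tested genes (-0.31 to 0.24). Intervals of the member and its relative are apart for Sdf2l1, Hspa5, Creld2, Hsp90b1, Calr and Dnajc3 and overlap for Dnajb11 and Hyou1.

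The rest of the ER folding system was read from lists that share some genes with each other. The counts here and below stand beside 26.8% of all tested genes called lower and 22.7% called higher. Of 24 tested other ER chaperones and cochaperones, 6 fell, 4 rose and 14 did not pass, with a median difference of 0.01; without control replicate 3, 2 rose. The largest fall was that of Dnajc10, the reductase J protein ERdj5, from 24.4 to 10.3 FPKM (difference -1.17, limma, adjusted p = 5.47e-06), and the largest rise that of Cnpy4 (0.61, adjusted p = 0.00189). Of 18 disulfide isomerases and oxidases, 4 fell and 6 rose, with a median of -0.04. Ero1a, the oxidase that feeds disulfide formation, rose from 6.34 to 16.6 FPKM (1.254), and Txndc5 fell most (-0.66). In the calnexin cycle 3 of 10 tested genes fell and 1 rose (median -0.06), with Edem1, a lectin of mannose-trimmed proteins, at -0.54 and Prkcsh, the beta subunit of glucosidase II, at 0.26.

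Of 20 tested genes of ER-associated degradation, 4 fell and 5 rose, with a median of 0.08. Herpud1, a scaffold of the degradation complex, rose by 2.06 and Edem1 fell most. Of 31 tested genes of protein entry into the ER, 13 fell and 4 rose (median -0.14); without control replicate 2, 2 rose. Srp9, a subunit of the signal recognition particle, fell by 0.65 on the log2 scale, and Tram2, from 0.580 to 1.56 FPKM, rose most (0.69); the call on Tram2 was lost without control replicate 2 or 4 or OGD replicate 1 and with no filter (adjusted p up to 0.0950). Among 14 tested KDEL receptors and ER calcium genes 2 fell and 1 rose, with a median of -0.0013; no rise was called without control replicate 1 and OGD replicate 4 together. The KDEL receptors return escaped lumenal proteins to the ER. Of these receptors, named after their values were seen, Kdelr2 fell by 0.36, Kdelr1 was at 0.02 (limma, adjusted p = 0.896) and Kdelr3 at -0.59 (5.02 ± 1.23 and 3.12 ± 1.34 FPKM, adjusted p = 0.0539). In the same list the calcium sensors Stim1 and Stim2 were at -0.43 and 0.30, both past the threshold.

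Among the sensors and transducers of the unfolded protein response, 8 of 20 tested genes rose, 4 fell and 8 did not pass, with a median of 0.15. On the PERK branch Eif2ak3, which encodes PERK itself, rose from 8.15 to 10.3 FPKM (0.30, limma, adjusted p = 0.0120). That adjusted p was 0.0533 without control replicate 1 and OGD replicate 4 together. Atf4 rose from 93.1 to 255 FPKM (1.44, limma, adjusted p = 1.98e-07). Ddit3, the stress factor CHOP, rose from 6.00 to 38.4 FPKM (2.49, limma, adjusted p = 2.93e-08). These are levels of transcript, and whether PERK acted on Atf4 and Ddit3 was not tested. On the IRE1 branch Ern1 was at 2.57 and 2.44 FPKM (-0.04, adjusted p = 0.830) and Xbp1 fell from 42.7 to 28.9 FPKM (-0.55, adjusted p = 0.000196); gene-level FPKM does not separate spliced from unspliced Xbp1. Atf6 was at 11.7 and 12.3 FPKM (0.08, adjusted p = 0.622), which speaks of its transcript and not of its cleavage. Of the NF-Y subunits that read CCAAT, named after their values were seen, Nfya fell (-0.73), Nfyc rose (0.29) and Nfyb was at 0.16 (adjusted p = 0.281). Outside the ER, 10 of 22 tested HSP70, HSP90, HSP110 and J proteins fell and 1 rose, with a median of -0.11 (2 rose without control replicate 1, and under 2 of the scalings). Hspa2 fell most (-0.996) and Hspa4l rose (0.34).

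**Figure D5:**
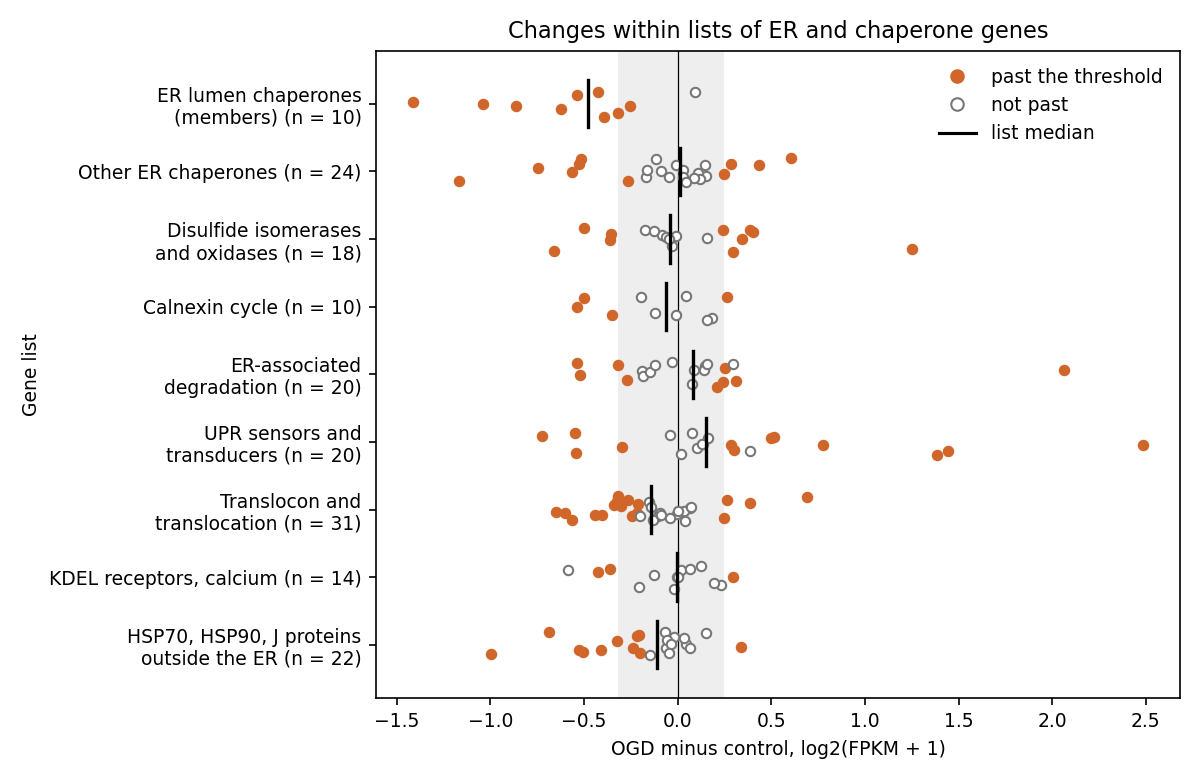
Difference between OGD and control, log2(FPKM + 1), for every tested gene of each list, filled where it passed the threshold, with the list median as a bar and the middle 50% of all tested genes (-0.31 to 0.24) as a band. The median of the 10 ER lumen chaperones (-0.48) lies outside the band and those of the other lists drawn (-0.14 to 0.15) inside it. Of the marker lists, not drawn, the precursor (-0.42) and microglia (-1.10) medians were also outside. The astrocyte (-0.09) and neuronal (0.0008) medians were inside.

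The genes whose profile over the 8 samples was nearest to that of Hspa5, by the root mean square distance between log2(FPKM + 1) values centred on each gene's mean, were Csdc2 (0.0616), Pknox1 (0.0716), Isg15 (0.0721), Cdc6 (0.0724) and Slc35a4 (0.0733). None of these is an ER chaperone. Isg15, at 1.69 and 0.391 FPKM, is low enough for the pseudocount to set its likeness: its difference was -0.95, and -1.87 with a pseudocount of 0.1. Csdc2, an RNA-binding protein, went from 29.9 ± 1.597 to 13.3 ± 0.929 FPKM, and Cdc6, a factor of replication licensing, from 6.39 ± 0.404 to 2.67 ± 0.148 FPKM (SD, n = 4 each). Of the other 9 chaperones the nearest was Creld2, in place 87 (0.139), and the farthest Dnajb9, in place 6102 (0.570). This distance depends largely on the size of the difference between groups. The 5 nearest genes had differences of -1.11 to -0.95, beside -1.04 for Hspa5, so the places largely restate the falls above. Genes without a settled symbol (LOC, RGD and the like) were left out of the ranking.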

How the data were processed

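Messenger RNA was measured in 8 samples, grouped by their treatment labels; the labels name no batch or date. The authors deposited 1 table, with FPKM values in columns named for samples (per the file headers). Libraries were strand-specific, per the labels' protocols, and Trimmomatic, FastQC and build rn6 (Rnor_6.0) are named in the submitters' processing notes; for aligner, FPKM program and annotation the sources used here give no name. FPKM holds no counts, so count tests were not run, and an abundant gene that shifts moves all others.

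Genes reaching 1 FPKM in 4 or more samples were tested as log2(FPKM + 1), using R 4.3.3 and limma 3.58.1 (group only, empirical Bayes with a trend, Benjamini-Hochberg over 11149 genes, threshold 0.05). The script was tested on simulated data. Ratios to relatives within samples were compared by exact permutation, and the share of all other tested genes that separate in the same way was counted for each denominator. Relative depth came from ratios of values up to 0.5 FPKM; 75.9% to 79.0% were ratios of small whole numbers within 0.01 (log2). Motifs were searched on both strands. Python 3.11.15, pandas 2.3.3, numpy 2.4.6, scipy 1.17.1 and matplotlib 3.10.9 were used.

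The members, lists, pairs and alternatives were chosen with earlier results of these data known. Named genes were all members, their relatives, 6 genes of the unfolded protein response (Ern1, Eif2ak3, Atf6, Xbp1, Atf4 and Ddit3), the largest rise and fall past the threshold of each other list, and the 5 nearest profiles to Hspa5. Outside this rule, further cell markers, the KDEL receptors, the NF-Y subunits and genes with ERSE or ERSE-II letters were also named. List genes on more than 1 row took the row with the highest mean. Replicate numbers did not pair the samples (correlations of deviations -0.222 to 0.163 over 4 numbers).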

Additional observations from a re-analysis of the deposited data

How the results depend on the processing

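The count of falling chaperones stayed at 8 or 9 of 10 under pseudocount, filter, normalization and variance alternatives, each with 0 rising, and was 8 to 9 when single samples were left out; in each case of 8 the lost gene was Dnajc3. With a minimum fold change of 2, 2 of the 10 and 467 of all genes were called, against 9 and 5519. Leaving out single samples gave 4716 to 5450 genes. With the replicate number as a block, 8 chaperones (Dnajc3 was lost, adjusted p = 0.0543) and 5509 genes were called, and 7 of 8 ratios to a relative fell in every same-numbered pair; samples correlated best with their own number in 1 of 4 cases. No member reversed its direction in any fit. Of the member to relative ratios, 7 of 8 stayed separate in every alternative run. The share of the 10 genes in all FPKM was 0.263% and 0.187% outside mitochondrially encoded genes. Total fragment counts are unknown, so no counting interval can be given.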

Other observations

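ERSE or ERSE-II letters were present in the promoter windows of 38 genes, of which 7 are ER lumen chaperones and 31 are not. All 7 of the chaperones fell (Dnajc3 not in every alternative). Of the 17 others that were tested, 2 fell, 6 rose and 9 did not pass, with a median difference of -0.01 on the log2(FPKM + 1) scale. Without control replicate 3, 3 rose in place of 6. Among all 8205 tested genes with a window, 2263 fell and 1903 rose. The falling pair was Xbp1 (-0.55) and Hnrnpa3, an RNA-binding protein, from 419 ± 10.2 to 307 ± 32.8 FPKM (SD, n = 4 each).

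The rising genes with these letters were Herpud1 (2.06), Zfp57 (0.74), Cdc27 (0.39), Ero1b (0.38), Ggct (0.32) and Ppm1l (0.24). Herpud1 holds ERSE-II letters, as do Hyou1 and Dnajb11, and went from 12.3 ± 1.29 to 54.1 ± 2.21 FPKM (limma, adjusted p = 2.93e-08), while both chaperones fell. Canx holds ERSE letters, as Calr does, and differed by -0.01. Genes with the same letters near their start thus lay on both sides of 0. These letter matches are descriptions of sequence, and no binding was measured in these samples.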
